A study of Mus musculus with 3 samples.

Results

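The 10 genes described here, Ifit1, Ifit2, Ifit3, Oasl1, Oasl2, Oas3, Isg15, Usp18, Mx1 and Rsad2, are antiviral genes of the interferon response. They were taken by symbol, as a named set from several gene families, from 56980 listed genes, and all 10 were found. The set was chosen with earlier results of these data known, so counts of members past a limit are descriptions only. Type I interferons bind a receptor made of IFNAR1 and IFNAR2, whose kinases JAK1 and TYK2 activate a complex that contains STAT2 and IRF9 and binds interferon-stimulated response elements in the promoters of such genes. Their products act at different steps of a virus's life cycle. In marrow, interferon is best known for driving dormant stem cells into division and for shaping myeloid output.

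The data were single-cell RNA counts of mouse bone marrow nucleated cells (BMNCs) in 3 libraries, each pooled from 3 mice and prepared at day 14. Control mice were not irradiated, IR mice received 6.0 Gy of gamma-irradiation, and IR+CBD mice received the same dose with cannabidiol (CBD), a plant cannabinoid that does not intoxicate. Per the study's methods the animals were male C57BL/6 mice, CBD was injected before and after irradiation in soybean oil with DMSO, solvent controls received that vehicle, and sorted fractions, Lin-Kit+, Lin-Kit- and Lin+, were combined 5:4:1 before loading, so shares of cells describe this mix and not marrow. In describing these single-cell data, the study refers to the IR group as treated with solvent control. Whether Control mice received the vehicle, and the age of the mice, are not given in the sources used here. Each condition was a single library, so no test between conditions was possible, and every interval below is a 95% interval for counting error only.

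After removal of barcodes with under 200 genes or over 5% mitochondrial UMIs (unique molecular identifiers, 1 per captured RNA molecule), 10674 Control, 10345 IR and 10273 IR+CBD cells remained, with 194839224, 202361682 and 173466089 UMIs. Levels are given as CPM, UMIs of a gene per 1000000 UMIs of the cells summed. Between any pair of libraries 35 to 51 barcodes were shared, and none was in all 3. Lineages were approximated by gates on raw UMIs: at least 5 of Mpo (myeloid progenitors), 2 of Klf1 (erythroid), 2 of Cd79a (B lineage), 5 of Retnlg (neutrophils), 3 of Siglech (plasmacytoid dendritic cells), or 1 each of Cd34 and Adgrl4. Gates could overlap, and 19.9% to 23.1% of cells passed more than 1. The summed markers of each named lineage were higher in their own gate than over all cells, for example 237069 to 250179 CPM of neutrophil markers in the Retnlg gate. In the Cd34 with Adgrl4 gate stem cell markers were at 192 to 288 CPM, beside 93.2 to 171 CPM over all cells. Myeloid progenitor markers there reached 9437 to 11439 CPM. Of its cells, 72.3% to 89.2% also passed another gate, so it is called by its rule only. Named gates were mixed too, with 57.0% to 70.9% of Mpo gate cells in another gate. Neutrophil markers exceeded the gate's own markers in Cd79a (7800 to 11342 beside 7154 to 7425 CPM) and Siglech (4902 to 17384 beside 3452 to 4684 CPM).

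By Ensembl identifier, in the GENCODE M21 annotation of GRCm38, all members are protein coding. The Ifit genes lay together on the plus strand of chromosome 19, Ifit2 at chr19:34550694-34576419, Ifit3 at chr19:34583531-34588731 and Ifit1 at chr19:34640871-34650009. Oasl2 was at chr5:114896936-114912234 and Oasl1 at chr5:114923240-114937915 on the plus strand, with Oas3 at chr5:120753098-120777661 on the minus strand. Isg15 was at chr4:156199424-156200818 and Rsad2 at chr12:26442746-26456452, both on the minus strand, and Usp18 was at chr6:121245906-121270917 on the plus strand. Mx1 was at chr16:97447035-97462907 on the minus strand, and RefSeq lists this gene as a transcribed pseudogene in the reference strain. Usp18 overlapped the opposite-strand gene Gm44148 over 15715 bases and Oasl1 overlapped Gm13822 over 38 bases. Gm44148 had 722, 983 and 683 UMIs and Gm13822 had 656, 1659 and 954 UMIs in Control, IR and IR+CBD, counted apart from the members, and their part in the members' values was not tested.

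Promoter sequences are shown because the pathway acts through an element in promoters, and whether the matches below act in these cells was not tested. RefSeq windows of 300 bases (250 before the start site and 50 after, GRCm38.p6) were found for 8 of the 10 members, with 2 windows for Ifit2, and were searched on both strands for a pair of GAAA runs with NN, any bases, between them, the core of the interferon-stimulated response element. The letters were found for Isg15, Oas3, Rsad2, Ifit3 and Ifit1, 5 of 8 members, and in 3.44% of all 32851 windows. Matches are in capitals, read 5′ to 3′ along the gene's strand, and the reverse complement, TTTC, NN and TTTC, marks a match on the other strand. The stretches are chr4:156200845-156200926 for Isg15 and chr5:120777695-120777764 for Oas3, then chr12:26456533-26456602 for Rsad2, all on the minus strand, and chr19:34583343-34583446 for Ifit3 and chr19:34640755-34640843 for Ifit1 on the plus strand.
Isg15: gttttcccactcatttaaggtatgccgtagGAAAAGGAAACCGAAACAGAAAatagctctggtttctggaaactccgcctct
Oas3: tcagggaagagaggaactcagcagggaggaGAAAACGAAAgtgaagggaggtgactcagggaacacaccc
Rsad2: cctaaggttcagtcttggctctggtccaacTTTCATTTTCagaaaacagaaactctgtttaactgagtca
Ifit3: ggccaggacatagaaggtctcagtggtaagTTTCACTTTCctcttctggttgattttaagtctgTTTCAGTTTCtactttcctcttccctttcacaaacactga
Ifit1: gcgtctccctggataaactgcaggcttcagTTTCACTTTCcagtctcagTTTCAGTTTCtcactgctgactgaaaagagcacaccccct
Isg15 held 3 overlapping matches that began 78, 72 and 66 bases before the start site, so the capitals form a single run. Ifit1 held 2 separate matches at 104 and 85 bases and Ifit3 held 2 at 156 and 122 bases, while Oas3 had 1 at 75 bases and Rsad2 1 at 120 bases. The windows of Oasl1, Oasl2 and Ifit2 did not hold these letters. The motif TTCNNNGAA, the core of gamma-activated sites, was found for Ifit2 only, 241 bases before the start of 1 of its windows, and in 8.30% of all windows. Of 73 other genes of the interferon pathway list with a window, 27 held the same pair of GAAA runs.

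Over all cells, the 10 members together were at 41.9 CPM in Control, 191 CPM in IR and 59.4 CPM in IR+CBD. IR was thus 4.57-fold above Control (interval 4.46 to 4.68), IR+CBD stood at 0.311 of IR (0.304 to 0.317), and IR+CBD was 1.42-fold above Control (1.38 to 1.46). Of the 10 members, 9 were at least 2-fold higher in IR than in Control, beside 3.18% of the 24622 genes with at least 20 UMIs, and 9 were at least 2-fold lower in IR+CBD than in IR, beside 2.43% of genes. None was at least 2-fold higher in IR+CBD than in Control, beside 2.69%. The interval of that ratio lay above 1 for 7 members and held 1 for Ifit2, Ifit3 and Mx1. The share of all genes with an interval above 1 was not counted, so the 7 cannot be set against it. With other limits, 3 members were at least 4-fold lower in IR+CBD than in IR, beside 0.325% of genes, and 3 at least 1.5-fold higher in IR+CBD than in Control, beside 6.51%. Median log2 ratios over the members were 2.36 for IR over Control, -1.71 for IR+CBD over IR and 0.36 for IR+CBD over Control, against -0.05, 0.00 and -0.05 over all genes. Leaving out any single member kept the summed IR over Control ratio between 4.20 and 4.99. The mix of cells differed between libraries, with the Klf1 gate holding 12.5%, 31.3% and 27.7% of UMIs in the same order. For a weighted ratio, each cell was placed in the first gate it passed or in a group outside all gates. The order was Siglech, Cd34 with Adgrl4, Cd79a, Klf1, Retnlg and Mpo. With these groups weighted by their Control shares of UMIs, the IR over Control ratio was 4.11.

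**Figure D1:**
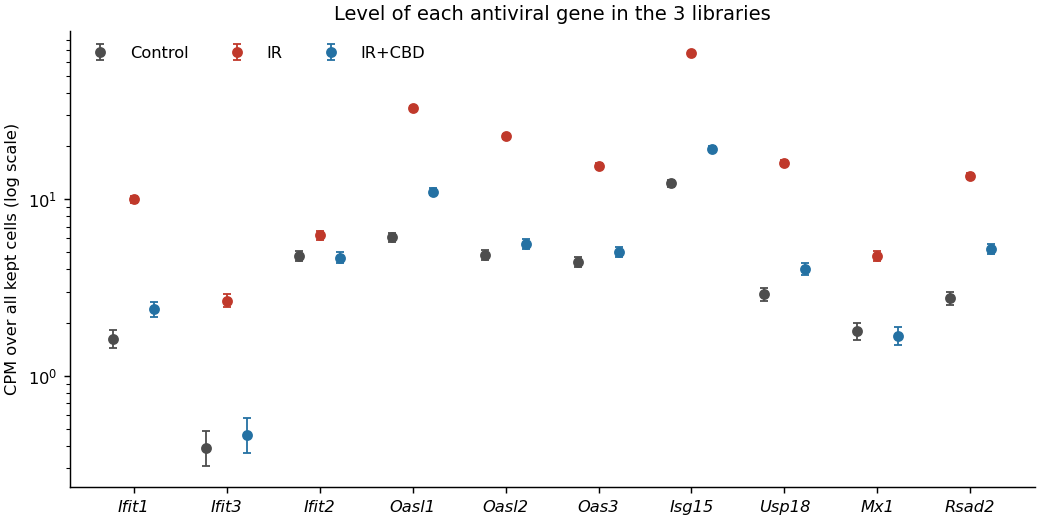
CPM of each member over all kept cells, on a log axis, in the Control (grey), IR (red) and IR+CBD (blue) library, with exact Poisson 95% intervals. For 9 genes the IR point stands well above the other 2, from Ifit3 at 2.66 CPM to Isg15 at 67.1 CPM, and the 3 points of Ifit2 lie between 4.67 and 6.23 CPM.

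Isg15, a ubiquitin-like protein that is secreted and is also joined to other proteins, was at 12.3 CPM in Control, 67.1 CPM in IR and 19.4 CPM in IR+CBD. The IR over Control ratio was 5.47 (5.23 to 5.71) and the IR+CBD over IR ratio 0.288 (0.278 to 0.299). IR+CBD stood 1.58-fold (1.5 to 1.66) above Control. Usp18, the protease that takes ISG15 off its targets and also dampens signalling from the interferon receptor, followed the same order at 2.89, 16.1 and 4.02 CPM, which put IR 5.55-fold (5.08 to 6.08) above Control and IR+CBD at 0.250 (0.230 to 0.271) of IR.

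The Ifit proteins bind foreign RNA and hold back its translation. Ifit1 was at 1.62 CPM in Control, 9.97 CPM in IR and 2.38 CPM in IR+CBD, a ratio of 6.17 (5.47 to 6.97) for IR over Control. Ifit3 had few UMIs, 76, 538 and 80 in the 3 libraries, and its ratios of 6.82 (5.35 to 8.78) and 0.173 (0.135 to 0.220) were the farthest from 1 among the members over all cells. Ifit2 did not share this size of difference. It was at 4.78, 6.23 and 4.67 CPM, 1.30-fold higher (1.20 to 1.42) in IR than in Control and at 0.749 of IR (0.685 to 0.819) in IR+CBD. Ifit3 and Ifit1 have near copies in the list, Ifit3b and Ifit1bl1, and how reads shared between copies were counted is not given in the sources used here, so these values are uncertain to that extent.

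Oas3 makes oligoadenylates when it binds double-stranded RNA, Oasl2 belongs to the same enzyme family, and Oasl1 is a relative known to restrain the translation of Irf7. Oasl1 was at 6.10, 32.8 and 11.1 CPM in Control, IR and IR+CBD, 5.37-fold higher (5.05 to 5.72) in IR than in Control. It was also among the members with the highest IR+CBD over Control ratios, at 1.81-fold (1.68 to 1.95) the Control level. Oasl2 was at 4.85, 22.7 and 5.57 CPM, and its IR+CBD level was 0.246 (0.229 to 0.263) of IR and 1.15-fold (1.05 to 1.26) Control. For Oas3, at 4.40, 15.5 and 5.03 CPM, the IR over Control ratio was 3.52 (3.26 to 3.8).

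Rsad2 encodes viperin, an enzyme that makes a chain-terminating nucleotide. It was at 2.76 CPM in Control, 13.6 CPM in IR and 5.22 CPM in IR+CBD, and its IR+CBD over Control ratio of 1.89 (1.70 to 2.11) was the highest of the members, with the 1.81 of Oasl1 inside its interval. A working Mx1 is a dynamin-like GTPase that traps viral nucleoproteins, but RefSeq lists the gene as a transcribed pseudogene in the reference strain. Whether these mice make a working protein was not tested, so its values describe RNA only. Mx1 was at 1.79, 4.77 and 1.68 CPM, which put IR 2.67-fold (2.36 to 3.03) above Control and IR+CBD at 0.353 (0.309 to 0.403) of IR. The Mx1 interval for IR+CBD over Control, 0.804 to 1.10, held 1.

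The difference was present in each gate. In IR the summed members were highest in the Retnlg gate at 560.0 CPM, followed by the Klf1 gate at 234 CPM and the Siglech gate at 231 CPM, which did not differ beyond their intervals, then Cd79a at 169, Cd34 with Adgrl4 at 121 and Mpo at 108 CPM. The Control order was Retnlg at 100.1 CPM, Siglech at 82.0, Klf1 at 56.5, Cd34 with Adgrl4 at 36.5, Cd79a at 34.8 and Mpo at 23.8 CPM, where only Cd34 with Adgrl4 and Cd79a were neighbours with overlapping intervals. In IR+CBD the levels were 145 CPM in Retnlg, 83.2 in Klf1, 66.8 in Siglech, 49.6 in Cd79a, 40.7 in Cd34 with Adgrl4 and 31.6 in Mpo, and the wide Siglech interval overlapped those of Klf1 and Cd79a. The neutrophil gate was therefore the highest and the Mpo gate the lowest in every library.

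**Figure D2:**
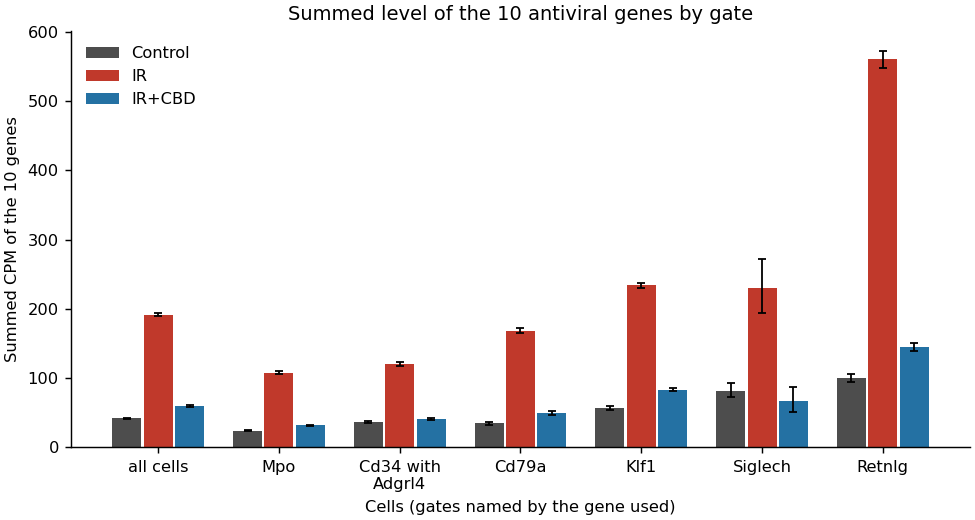
Bars give the summed CPM of the 10 genes over all cells and in each gate, for the Control (grey), IR (red) and IR+CBD (blue) library, with exact Poisson 95% intervals. In every group of cells the IR bar is the tallest, from 108 CPM in the Mpo gate to 560.0 CPM in the Retnlg gate.

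IR over Control ratios of the summed members were 5.59 (5.28 to 5.93) in the Retnlg gate, 4.84 (4.54 to 5.17) in Cd79a, 4.53 (4.34 to 4.73) in Mpo, 4.14 (3.92 to 4.38) in Klf1, 3.31 (3.18 to 3.44) in Cd34 with Adgrl4 and 2.81 (2.28 to 3.46) in Siglech. IR+CBD over IR ratios ran from 0.259 (0.247 to 0.271) in Retnlg to 0.356 (0.343 to 0.368) in Klf1. IR+CBD over Control ranged from 0.814 (0.599 to 1.09) in Siglech to 1.47 (1.39 to 1.57) in Klf1. The Klf1 value for IR over Control depends on how the gate is set, since gating after every cell was thinned to 2000 UMIs, a choice made after the data were seen that kept 43 of 586 Control and 113 of 1446 IR cells, gave 6.65. In the Klf1 gate erythroid markers also differed between libraries, at 3880, 2398 and 3010 CPM in Control, IR and IR+CBD, and their part in this was not tested.

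Members at least 2-fold higher in IR than in Control numbered 9 of 10 in the Mpo gate (2.33% of all genes tested there), 8 of 10 in Klf1 (3.26%), 9 of 10 in Cd79a (4.06%), 9 of 10 in Retnlg (4.07%) and 9 of 10 in Cd34 with Adgrl4 (1.91%). In the Siglech gate 7 members had at least 20 UMIs over the libraries and 5 of them were past 2-fold (3.64%), while Ifit1, Ifit3 and Rsad2 had fewer than 20 UMIs there. Members at least 2-fold lower in IR+CBD than in IR numbered 9 of 10 in Mpo (1.98%), 9 of 10 in Klf1 (2.83%), 8 of 10 in Cd79a (2.64%), 8 of 10 in Retnlg (2.52%), 6 of 7 in Siglech (5.37%) and 8 of 10 in Cd34 with Adgrl4 (2.40%). Genes at the edge of the limit were counted on few UMIs, for example Ifit3 in Klf1 with 5, 15 and 5 UMIs. Its IR+CBD over IR ratio there, 0.439, was 0.856 in cells that passed no other gate and 1.39 with the gate set on thinned cells. That of Mx1 in Klf1, 0.423, was 1.06 with Scrublet doublets removed and 0.934 in cells that passed no other gate. It was 0 with the gate set on thinned cells and 0.0518 without the top 1% of cells. In the Mpo gate the Ifit3 ratio for IR over Control, 2.94, was 1.93 with Scrublet doublets removed and 1.89 with every cell weighted alike, and it turned to 0.911 in cells that passed no other gate.

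**Figure D3:**
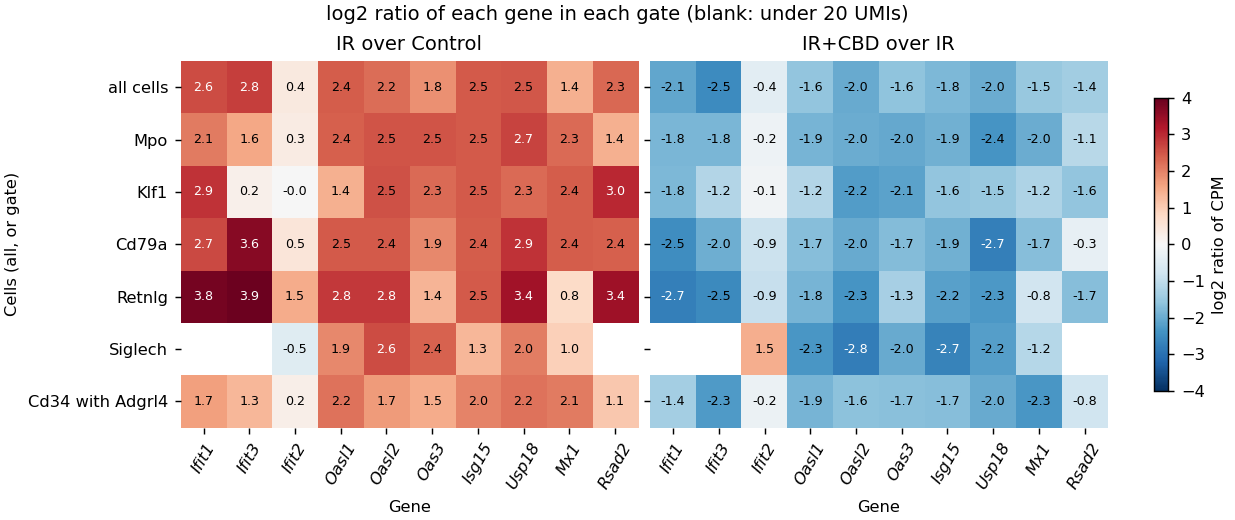
Each square gives the log2 ratio of CPM for 1 gene (column) in all cells or 1 gate (row), for IR over Control on the left and IR+CBD over IR on the right, with red above 0 and blue below 0. Blank squares had under 20 UMIs over the 3 libraries, and the Ifit2 column is the palest over all cells in both panels, with its deepest red squares for IR over Control in Retnlg (1.49) and for IR+CBD over IR in Siglech (1.46).

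The Retnlg gate, with the highest summed ratio, also held the highest ratios of single members. There Ifit1 was at 3.34 CPM in Control, 47.5 CPM in IR and 7.12 CPM in IR+CBD, a ratio of 14.2 (10.5 to 19.7) for IR over Control. Ifit3 was at 1.37, 20.8 and 3.56 CPM, a ratio of 15.2 (9.45 to 26), beside 12.4 (6.54 to 26.4) in the Cd79a gate, where it was 24.1 without the top 1% of cells. Rsad2 was at 7.29, 75.9 and 23.6 CPM and Usp18 at 2.43, 24.8 and 5.00 CPM, 10.4-fold (8.45 to 13) and 10.2-fold (7.10 to 15.1) higher in IR than in Control. Both were above Control in the IR+CBD neutrophil gate, Rsad2 by 3.23-fold (2.57 to 4.09) and Usp18 by 2.06-fold (1.34 to 3.22). Oas3 behaved otherwise, since this gate already held 34.6 CPM in Control, with 89.4 CPM in IR and 35.9 CPM in IR+CBD, so that its IR over Control ratio was 2.59 (2.32 to 2.88) and its IR+CBD over Control ratio 1.04 (0.916 to 1.18). Ifit2, at 2.73, 7.68 and 4.04 CPM, had its highest IR over Control ratio here, 2.81 (1.92 to 4.21), which was 6.86 with every cell weighted alike. With Scrublet doublets removed, Rsad2 in IR+CBD was at 0.197 of IR, beside 0.310 with them, and 2.13-fold above Control. Mx1 was nearly undetected, with 10, 19 and 11 UMIs, and its ratio of 1.69 (0.746 to 4.06) held 1, and it was 5.99 in cells that passed no other gate.

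Erythroid cells of the Klf1 gate carried a different balance. Oasl1 was at 21.2 CPM in Control, 56.5 CPM in IR and 25.1 CPM in IR+CBD, higher in Control than in any other gate, and the IR over Control ratio of 2.66 (2.43 to 2.92) was the lowest value among the gates. Isg15 was at 18.3, 100.1 and 33.2 CPM, a ratio of 5.48 (4.98 to 6.05), and Rsad2 at 1.97, 15.9 and 5.30 CPM, a ratio of 8.08 (6.05 to 11). Ifit2 was level across the libraries at 4.47, 4.46 and 4.07 CPM, with an IR over Control ratio of 0.998 (0.797 to 1.26). With the gate set on thinned cells the ratios of Isg15 and Rsad2 were 10.2 and 30.5. Mx1 had 4, 56 and 18 UMIs.

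B-lineage cells of the Cd79a gate showed Usp18 at 2.97 CPM in Control, 22.3 CPM in IR and 3.37 CPM in IR+CBD. IR was 7.49-fold (6.04 to 9.37) above Control, and IR+CBD was at 0.152 (0.120 to 0.189) of IR. Isg15 was at 10.2, 54.6 and 14.3 CPM. In IR+CBD, Rsad2 was nearest to its IR level of the members in this gate. It was at 1.45, 7.70 and 6.13 CPM, so that IR+CBD stood at 0.796 (0.650 to 0.971) of IR and 4.21-fold (3.01 to 5.98) above Control. Neutrophil markers in this gate summed to 8881, 7800 and 11342 CPM, and all 5 of them were detected in each library. The Rsad2 value rested on cells that other rules leave out, since IR+CBD over IR was 0.269 with Scrublet doublets removed, 0.212 in cells that passed no other gate and 0.304 without the top 1% of cells, and IR+CBD over Control was 2.48, 1.17 and 1.51.

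Myeloid progenitors of the Mpo gate had the lowest summed levels, though not the lowest level of every member. Their summed IR over Control ratio was near that over all cells while single members differed. Isg15 was at 6.51, 35.8 and 9.45 CPM, 5.50-fold (5.07 to 5.97) higher in IR than in Control. Mx1 was at 1.06, 5.14 and 1.30 CPM here, a ratio of 4.84 (3.95 to 5.97), and it was at 1.39, 7.5 and 2.29 CPM in the Cd79a gate, a ratio of 5.39 (3.91 to 7.59), above its ratio over all cells. Rsad2 was at 1.73, 4.64 and 2.17 CPM in the Mpo gate, and its IR over Control ratio of 2.69 (2.26 to 3.20) was under the 10.4 of the neutrophil gate. In cells that passed the Mpo gate only, Rsad2 had a ratio of 1.78 and Oas3 of 25.4, beside 5.72 (4.76 to 6.91) in the whole gate, and Mx1 had 7.92 with the gate set on thinned cells. In the Cd34 with Adgrl4 gate Isg15 was at 9.67, 38.0 and 11.8 CPM and Oasl1 at 4.85, 21.8 and 6.04 CPM, with IR over Control ratios of 3.93 (3.64 to 4.24) and 4.50 (4.05 to 5.01).

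The Siglech gate was small, with 273 Control, 46 IR and 79 IR+CBD cells. Isg15 was at 27.0 CPM in Control, 68.2 CPM in IR and 10.7 CPM in IR+CBD, and Usp18 at 10.7, 43.8 and 9.54 CPM. Ifit2 went the other way, at 9.11, 6.49 and 17.9 CPM from 29, 4 and 15 UMIs, 2.75-fold (0.877 to 11.4) higher in IR+CBD than in IR, which was 0.545 without the top 1% of cells. Mx1 was at 15.1, 29.2 and 13.1 CPM, higher than in any other gate of the same library. The Isg15 IR+CBD over Control ratio was 0.397 (0.176 to 0.789), while it was above 1 with its whole interval in the other 5 gates, and it was 0.645 with Scrublet doublets removed and 0.225 with the gate set on thinned cells. Of those 5 gates, it fell below 1 under 2 alternatives in Cd79a, down to 0.912, and under 3 in Cd34 with Adgrl4, down to 0.960. Neutrophil markers in this gate were at 4902, 17384 and 5172 CPM, all 5 detected in each library. Like Isg15 they were highest in IR, but in IR+CBD they were slightly above Control, whereas Isg15 was below it. The part of neutrophil RNA in the member levels was not tested.

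To ask how many cells carried the transcripts, each cell was thinned to 2000 UMIs at random, which left out 401 Control, 296 IR and 452 IR+CBD cells with fewer. A UMI of at least 1 member was then found in 8.25%, 27.4% and 9.46% of Control, IR and IR+CBD cells, against 33.9%, 67.3% and 36.1% without thinning. In the Retnlg gate the thinned shares were 19.5% (17 to 22.1), 60.3% (57.3 to 63.3) and 23.1% (20.8 to 25.6), and in the Mpo gate 4.67%, 16.6% and 5.27%. No gate is known to lack these inducible genes, so no share for a cell type without them can be set beside these values, and free RNA was not measured. Median depths before thinning were 12479.5, 14211 and 12502 UMIs per cell.

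**Figure D4:**
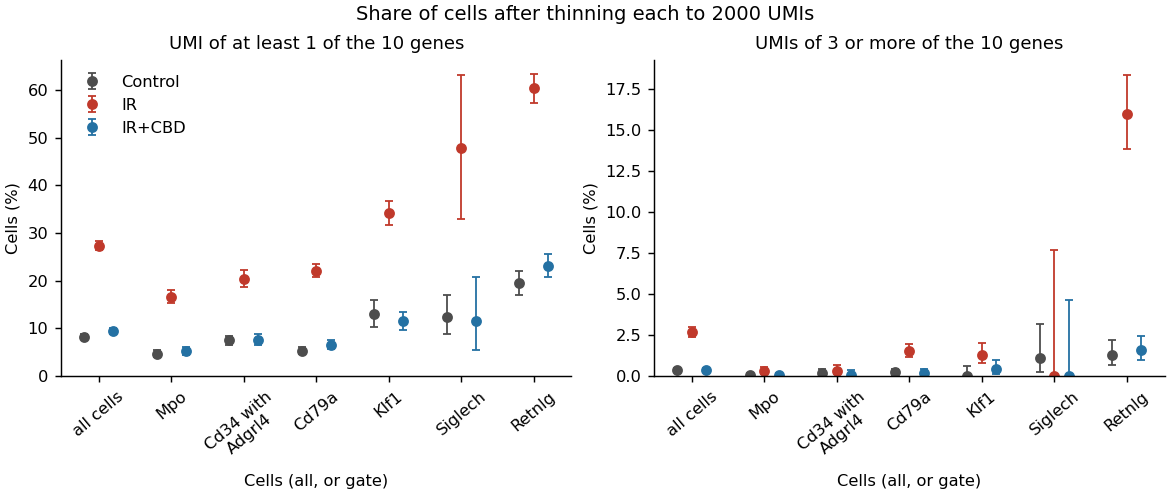
Share of cells (%) with a UMI of at least 1 member (left) and of 3 or more members (right) after thinning each cell to 2000 UMIs, over all cells and in each gate, with exact Clopper-Pearson 95% intervals. The IR share in the Retnlg gate, 60.3% and 16%, is the highest point of each panel, and the wide Siglech bars come from its few cells.

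UMIs of 3 or more different members in the same thinned cell were found in 0.350%, 2.69% and 0.356% of cells. The neutrophil gate held most of this co-detection per cell, at 1.30%, 16% and 1.59%, whereas in the IR library it was 1.53% in Cd79a, 1.31% in Klf1 and 0.309% in Mpo. Member UMIs were spread unevenly over cells. The 1% of cells with the most held 31.8%, 19.9% and 32.7% of the thinned member UMIs, and single cells reached 21, 40 and 39 of 2000 UMIs. Means were 0.116, 0.499 and 0.141 thinned member UMIs per cell. A low mean alone raises the share held by the top cells, so these shares do not compare evenness between libraries. Without the 1% of cells with the highest member share of unthinned UMIs, likewise a choice made after the data were seen, the summed IR over Control ratio was 4.95.

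Across the 18 combinations of gate and library, members differed in how closely they tracked the rest. The Pearson correlation of log2(CPM + 1) with the mean of the other 9 was 0.94 for Ifit1, 0.93 for Oasl2 and 0.92 for Isg15, then 0.85 for Rsad2, 0.83 for Usp18, 0.79 for Oas3 and 0.77 for Ifit3. It was 0.63 for Oasl1, 0.21 for Mx1 and 0.20 for Ifit2, the genes with their own lineage pattern or with little difference between libraries. These points share libraries, overlapping gates and depth, so the values describe likeness only. Among 17035 other genes, the 5 whose profile was most like the members' mean were Hsh2d (0.91), Rtp4 (0.91), Zbp1 (0.86), Dhx58 (0.85) and Xaf1 (0.83). Rtp4 was at 6.83 CPM in Control, 40.5 CPM in IR and 7.73 CPM in IR+CBD.

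The rest of the pathway was read from a list of 84 genes, of which 62 had at least 20 UMIs. Of these 62, 16 were at least 2-fold higher in IR than in Control and 1 at least 2-fold lower, beside 3.18% and 5.43% of all genes, and 10 were at least 2-fold lower and 2 at least 2-fold higher in IR+CBD than in IR, beside 2.43% and 2.07%. The median log2 ratios of the list were 0.28 and -0.26. The interferons themselves were nearly undetected. Ifnb1, the type I interferon made by most cell types, had 4, 7 and 16 UMIs in Control, IR and IR+CBD, Ifnz had 4, 8 and 17, and these were the 2 list genes past 2-fold higher in IR+CBD. Ifna1 had none in any library, which allows up to 0.0154, 0.0148 and 0.0173 CPM, and Ifna2 had 1, 4 and 10 UMIs. Ifng, from T and NK cells, had 241, 207 and 180 UMIs.

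Receptors and kinases differed little. Ifnar1 was at 20.6 CPM in Control, 16.5 CPM in IR and 17.2 CPM in IR+CBD, and Jak1 at 149, 127 and 136 CPM. None of the 6 receptors and 3 kinases was past 2-fold in either comparison. Among the 8 transcription factors, Irf7, the factor that amplifies interferon production, was at 5.75, 27.3 and 6.74 CPM, so that IR stood 4.74-fold (4.45 to 5.06) above Control and IR+CBD at 0.247 (0.232 to 0.263) of IR, within the range of the members. Irf9 was at 16.1, 31.7 and 19.1 CPM, with an IR over Control ratio of 1.97 (1.89 to 2.06). Irf3, which is activated without being induced, was at 31.2, 31.1 and 29.7 CPM.

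**Figure D5:**
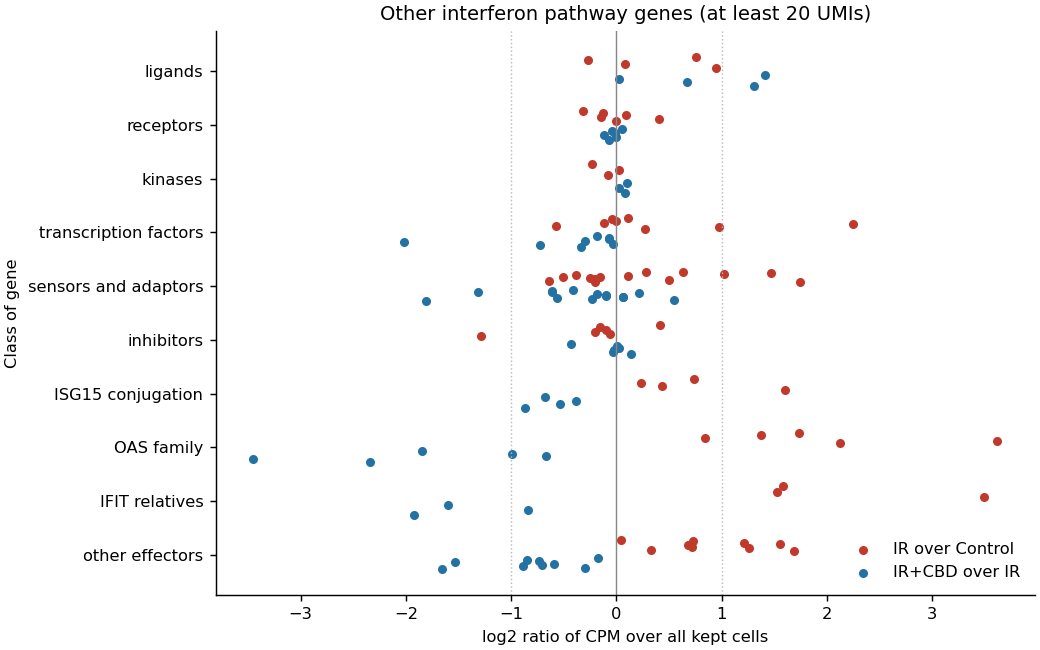
Each point is 1 gene of the interferon pathway list with at least 20 UMIs, placed by its log2 ratio of CPM over all cells for IR over Control (red) and IR+CBD over IR (blue), with dotted lines at 2-fold. Points of receptors and kinases lie near 0, and those of the OAS family reach farthest to both sides. The IFIT relatives come next on the right, while on the left the transcription factor Irf7 lies beyond them.

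Relatives of the members were likewise highest in IR. Of 5 OAS family genes with enough UMIs, 4 were at least 2-fold higher in IR than in Control and 3 at least 2-fold lower in IR+CBD than in IR, beside the 3.18% and 2.43% of all genes. Oas1g was at 0.334, 4.10 and 0.375 CPM, a ratio of 12.3 (9.53 to 16.1) for IR over Control, and Oas2 at 1.99, 8.66 and 1.71 CPM. All 3 IFIT relatives were at least 2-fold higher in IR than in Control and 2 at least 2-fold lower in IR+CBD than in IR, with Ifit3b at 0.103, 1.16 and 0.306 CPM, and the Oas1 genes are close copies whose reads may not have been told apart. Of the 4 genes of ISG15 conjugation, Ube2l6, which hands ISG15 on to its targets, was at 10.1, 30.8 and 16.8 CPM, a ratio of 3.04 (2.89 to 3.20), and Uba7, Herc6 and Trim25 were 1.18-fold to 1.66-fold higher in IR than in Control. Cmpk2, the neighbour of Rsad2 that supplies its substrate, was at 9.49, 21.9 and 13.1 CPM. Socs3, a feedback inhibitor of cytokine receptors, was the 1 gene at least 2-fold lower in IR than in Control, at 14.5, 5.95 and 6.55 CPM.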

How the data were processed

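The authors deposited raw UMI counts for every gene and cell of each library, with no normalization. The deposited matrix headers name Cell Ranger 7.0.1, whereas the study's methods and the submitters' processing notes name version 4.0, with GRCm39 as the build in the notes. Whether intronic reads were counted is not given in the sources used here, so the counts may include them. Following the methods, cells needed at least 200 genes and at most 5% mitochondrial UMIs, but doublets, which the study filtered out with DoubletFinder, were kept here (Scrublet removal was an alternative). Counts were summed per library over all cells and per gate and scaled to CPM. CPM have exact Poisson, ratios exact conditional binomial and shares exact Clopper-Pearson 95% intervals, and a count of 0 is bounded by 3 counts. Only the code for the ratio intervals was checked, on simulated Poisson counts. Those counts lack the uneven spread of member UMIs over cells, so the check does not cover it. No test between conditions was made, with 1 library each. Background shares used genes with at least 20 UMIs over the libraries and a pseudocount of 0.5 UMI.

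The members, the gates, the pathway list and the marker lists were chosen with earlier results of these data known. Named genes were all members, the pathway list, and the 5 genes most like the members' mean profile among genes with at least 50 UMIs in every library. Rigi, Mb21d1 and Tmem173 are other symbols of list genes found as Ddx58, Cgas and Sting1. Some further genes of the pathway list are not reported here and were left out of its counts. Marker lists covered myeloid progenitor, erythroid, B, neutrophil, plasmacytoid dendritic, stem, endothelial, T and NK, and monocyte genes, of which the last 3 summed to 78 to 98, 281 to 344 and 672 to 788 CPM over all cells. Positions came from GENCODE M21 (GRCm38), since no GRCm39 annotation was used here, and promoters from RefSeq (GRCm38.p6). Python 3.11.15, numpy 2.4.6, scipy 1.17.1, pandas 2.3.3, matplotlib 3.10.9 and scanpy 1.11.5 were used.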

Additional observations from a re-analysis of the deposited data

Results flagged for a closer look

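Isg15 in the Siglech gate stood at 0.397 of Control in IR+CBD, with 86 UMIs in Control and 9 in IR+CBD, while the same ratio was above 1 in the other 5 gates, although alternatives brought it below 1 in Cd79a (lowest 0.912) and Cd34 with Adgrl4 (lowest 0.960). The difference between gates was not tested.

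Cells outside the comparisons, those with at least 200 genes that were removed for over 5% mitochondrial UMIs, also carried the members. Their summed level was 42.2 CPM in 1482 Control, 168 CPM in 1356 IR and 48.0 CPM in 1179 IR+CBD cells, a ratio of 3.98 (3.39 to 4.69) for IR over Control.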

How the results depend on the processing

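With 1 library per condition, every difference between conditions is also a difference between libraries and pools of mice, and these cannot be told apart. Whether the libraries shared a sequencing run is not given in the sources used here. No paired analysis was possible because each condition is 1 library. Limits of 10% mitochondrial UMIs or 1000 genes per cell, and all deposited barcodes, kept each summed ratio within its counting interval. In all, 177 of the 237 values under alternatives stayed within that interval or the count's limit, 58 moved beyond it and 2 whose interval lay clear of 1 changed direction, and the cause was not tested. Over all cells no ratio of a single member moved by over 1.5 times, but 10 to 22 of 30 did in each gate.

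Over all cells, the values for IR over Control, IR+CBD over IR and IR+CBD over Control were 4.29, 0.289 and 1.24 with every cell weighted alike. Those for IR over Control and IR+CBD over Control were 4.73 and 1.46 with median-of-ratios scaling. They were 4.11 and 1.26 with each cell placed in its first gate or outside the gates and these groups weighted by Control shares. Without the top 1% of cells, IR over Control was 4.95 and IR+CBD over IR 0.281. At 4-fold, 3 members (0.325% of all genes) were lower in IR+CBD than in IR, and at 1.5-fold, 3 (6.51% of all genes) were higher in IR+CBD than in Control. Thinning to 5000 UMIs gave shares of cells with a member UMI of 18%, 47.6% and 19.4% in Control, IR and IR+CBD.

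In the Mpo gate, IR over Control was 3.69 with cells weighted alike, 4.25 with doublets removed, 4.78 in cells of exactly 1 gate, 5.30 with gates on thinned cells and 5.24 without the top cells. IR+CBD over IR was 0.266 in cells of 1 gate and 0.265 without the top cells, and IR+CBD over Control was 1.06 with cells weighted alike, 1.25 with doublets removed and 1.54 with gates on thinned cells. In the Klf1 gate, gates on thinned cells gave 6.65, 0.268 and 1.78 for the 3 comparisons in the order above. There IR+CBD over IR was 0.334 with cells weighted alike and 0.316 without the top cells, where IR+CBD over Control was 1.33. In the Cd79a gate, IR over Control was 5.22 without the top cells. IR+CBD over IR and IR+CBD over Control were 0.238 and 1.11 with doublets removed, 0.269 and 1.29 with cells weighted alike, 0.216 and 1.02 in cells of 1 gate, 0.226 and 1.11 with gates on thinned cells, and 0.243 and 1.27 without the top cells. In the Retnlg gate these were 0.222 and 1.26 with doublets removed, 0.225 and 1.22 in cells of 1 gate, and 0.219 and 1.26 without the top cells, and gates on thinned cells gave 5.19 for IR over Control and 0.274 for IR+CBD over IR. In the Siglech gate, doubled thresholds gave 2.16 for IR over Control, and IR+CBD over Control, whose interval held 1, ran from 0.722 to 1.05, crossing 1 with doublets removed. In the Cd34 with Adgrl4 gate, IR over Control and IR+CBD over IR were 2.54 and 0.359 with cells weighted alike, 2.50 and 0.412 in cells of 1 gate, and 3.62 and 0.302 without the top cells, and IR over Control was 2.72 with gates on thinned cells. IR+CBD over Control there changed direction, from 1.12 (1.06 to 1.18) to 0.911 with cells weighted alike and 0.875 with gates on thinned cells, and was 1.03 in cells of 1 gate.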
